A study of Saccharomyces cerevisiae with 16 samples.

Results

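The 34 genes described here carry sulphate into methionine, cysteine and S-adenosylmethionine (AdoMet) in Saccharomyces cerevisiae, take up sulphur-containing compounds, or regulate these steps. They were chosen by name from a list of the pathway, with earlier results of these data known. All 34 were found among the 6321 features of the table, 5611 of which have a gene name, and each had 1 probe. Cultures of a wild type (WT), of a YAP1 deletion and of a PDR1 deletion were exposed to benomyl, a drug that depolymerises microtubules. Yap1 is a transcription factor of oxidative stress and drug tolerance, and Pdr1 one that controls drug efflux pumps. Each array compared total RNA of drug-treated cells with that of untreated cells of the same strain, at 30 s and at 2, 4, 10 and 20 min, and in WT also at 40 min, which gave 6 arrays for WT and 5 for each deletion. Each strain and time had 1 array. Strain background, the deletion alleles, the dose of the drug and the growth medium are not given in the sources used here, and neither is whether a strain was 1 clone.

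Yeast takes up sulphate through the permeases Sul1 and Sul2, activates it with ATP, and reduces it through sulphite to sulphide. Sulphide is joined to O-acetylhomoserine to give homocysteine, which is methylated to methionine or turned into cysteine by transsulphuration, and cysteine in turn feeds the synthesis of glutathione. The transcriptional activator Met4 switches most of these genes on. It is brought to DNA by Cbf1, Met28, Met31 and Met32 and is held inactive by the ubiquitin ligase subunit Met30 when cysteine and AdoMet are plentiful.

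All values are deposited log ratios read as log2 of drug-treated over untreated RNA. A value of 1 thus means a 2-fold higher transcript level in treated cells, on an array whose mean is near 0. A change in transcript per cell and a change in the share of cells that hold it cannot be told apart in such cultures. Of the 34 genes, 16 had a value on all 16 arrays, and MET32 had the fewest, 8. The PDR1 deletion at 2 min lacked a value for 14 of them and had values for 3450 of the 6338 probes, the lowest number of any array; the highest was 6128. The standard deviation of all features on an array lay between 0.17 and 0.59. FLR1, a drug exporter under Yap1, ranged from 0.06 to 5.48 in WT, from -0.20 to 0.13 in the YAP1 deletion and from 0.24 to 6.15 in the PDR1 deletion. Both channels of an array came from the same strain, so the ratio of a deleted gene does not check its label. The YAP1 probe had a value on all 5 arrays of the YAP1 deletion (-0.06 to 0.29), and the PDR1 probe on 1 of the 5 arrays of the PDR1 deletion (0.39 at 4 min) and on all 11 others.

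The comparisons asked which steps of the pathway responded to benomyl, when, and whether the response differed without Yap1 or Pdr1. A response over 2 to 20 min is the mean log2 ratio of the 4 times of a strain, and a late response is the mean of its 10 and 20 min arrays. Both were fitted with limma over all 4324 features that had at least 3 of the 4 values in every strain (4323 in all but 1 contrast of the late response), and a gene is said to have risen or fallen where the Benjamini-Hochberg adjusted p over all these features was under 0.05. That filter kept 26 of the 34 genes and left out SUL2, MUP3, MET5, MET10, MET1, SAM1, STR2 and MET32, which are described by their values.

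In WT, genes for methionine and AdoMet uptake, for the activation and reduction of sulphate, for homocysteine synthesis and for transsulphuration rose, and none of the 26 fell. The late response held 8 genes, SAM3, MUP1, MMP1, MET14, MET16, MET17, CYS3 and CYS4, at 0.47 ± 0.11 to 1.19 ± 0.19 (log2, SE, n = 2 arrays). Their share was 30.8% of the 26 genes, where 9.07% of all features were called in either direction. The median late response of the 26 genes was 0.20 on the log2 scale, against -0.04 for all features tested. Over 2 to 20 min, 6 of the 26 rose and 0 fell (23.1%, where 4.16% of all features were called): the same genes without MET14 and MET16, which averaged 0.57 ± 0.18 (adjusted p = 0.101) and 0.66 ± 0.22 (adjusted p = 0.125). The late calls rest on the WT array at 20 min: without it 2 genes, MET17 and MUP1, passed, and 4 passed with all arrays scaled to the same spread. Over 2 to 20 min the count was 3 without the WT array at 4 or at 10 min, 1 without that at 20 min (MUP1), and 0 without the time block or with the WT arrays alone.

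**Figure D1:**
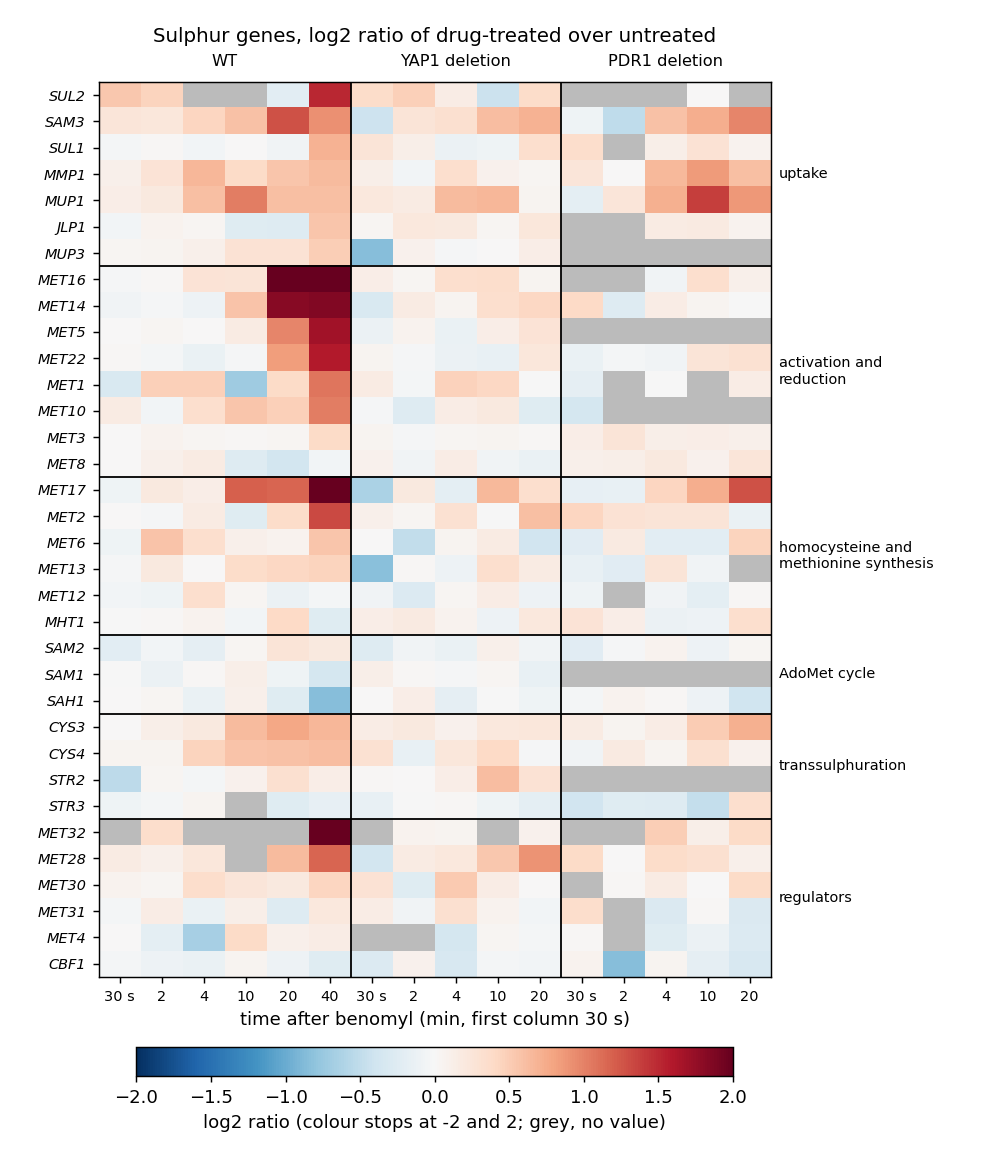
Log2 ratio of drug-treated over untreated RNA for the 34 sulphur genes (rows, grouped by role and ordered by their value in WT at 40 min) on the 16 arrays (columns, time after benomyl in each strain), 1 array per column, with no value shown in grey. The highest values lie in WT at 20 and 40 min, where MET16 stood at 2.09 and 3.08; MET5, MUP3, SAM1 and STR2 had no value in the PDR1 deletion.

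Uptake held the most genes that rose in WT, 3 of the 5 tested. MUP1, the high-affinity methionine permease, stood at 0.14 (30 s), 0.20 (2 min), 0.60 (4 min), 1.03 (10 min), 0.60 (20 min) and 0.61 (40 min) in WT. It was at 0.21 (30 s), 0.17 (2 min), 0.64 (4 min), 0.66 (10 min) and 0.06 (20 min) in the YAP1 deletion and at -0.20 (30 s), 0.25 (2 min), 0.71 (4 min), 1.39 (10 min) and 0.86 (20 min) in the PDR1 deletion. All 3 strains were thus near 0.6 to 0.7 at 4 min and had parted by 10 min. At 20 min the YAP1 deletion was back near 0. The late response of MUP1 in WT was 0.81 ± 0.10 (1.76-fold, adjusted p = 0.000355), and over 2 to 20 min it was 0.61 ± 0.10 (adjusted p = 0.00475).

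SAM3, a permease for AdoMet, stood at 0.25 (30 s), 0.22 (2 min), 0.42 (4 min), 0.59 (10 min), 1.27 (20 min) and 0.91 (40 min) in WT, at -0.41 (30 s), 0.25 (2 min), 0.32 (4 min), 0.61 (10 min) and 0.69 (20 min) in the YAP1 deletion and at -0.09 (30 s), -0.51 (2 min), 0.59 (4 min), 0.73 (10 min) and 0.98 (20 min) in the PDR1 deletion. From 4 to 20 min its values climbed at each step in every strain. Its late response in WT was 0.93 ± 0.17 (1.9-fold, adjusted p = 0.00662). MMP1, a permease for S-methylmethionine, stood at 0.10 (30 s), 0.27 (2 min), 0.67 (4 min), 0.38 (10 min), 0.56 (20 min) and 0.64 (40 min) in WT, at 0.12 (30 s), -0.06 (2 min), 0.34 (4 min), 0.09 (10 min) and 0.04 (20 min) in the YAP1 deletion and at 0.24 (30 s), 0.00 (2 min), 0.65 (4 min), 0.86 (10 min) and 0.60 (20 min) in the PDR1 deletion. Its late response in WT was 0.47 ± 0.11 (1.38-fold, adjusted p = 0.0257). That call was lost in 6 of 20 alternative settings. Among them were those without the WT array at 10 or at 20 min or the YAP1 deletion array at 2 or at 4 min. The fit of the WT arrays alone was another (adjusted p = 0.127, limma).

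The sulphate permeases behaved otherwise. SUL1 lay between -0.07 and 0.02 from 30 s to 20 min in WT and stood at 0.69 at 40 min; its late response was -0.03 ± 0.13 (adjusted p = 0.914). SUL2 was measured on 4 of the 6 WT arrays, at 0.53 (30 s), 0.44 (2 min), -0.21 (20 min) and 1.51 (40 min). Its value at 40 min was the highest of the uptake genes on that array, and SUL2 was not tested. In the YAP1 deletion SUL2 lay between -0.44 and 0.47, and its value in the PDR1 deletion, on 1 array, was 0.01. JLP1, a dioxygenase that releases sulphite from sulphonates, stood at -0.06 (30 s), 0.07 (2 min), 0.04 (4 min), -0.24 (10 min), -0.26 (20 min) and 0.56 (40 min) in WT, with a late response of -0.25 ± 0.11 (adjusted p = 0.171). MUP3, a low-affinity methionine permease, went from 0.04 at 30 s to 0.49 at 40 min in WT and had no value in the PDR1 deletion.

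Among the enzymes that activate and reduce sulphate, 2 of the 5 tested rose late in WT. Their late responses and that of MET17 were the highest of the 26 genes, and lay within 1 SE of each other. MET16, the reductase that turns phosphoadenylyl sulphate into sulphite, stood at -0.03 (30 s), 0.02 (2 min), 0.27 (4 min), 0.26 (10 min), 2.09 (20 min) and 3.08 (40 min) in WT. In the YAP1 deletion it was at 0.14 (30 s), 0.04 (2 min), 0.33 (4 min), 0.36 (10 min) and 0.06 (20 min), and in the PDR1 deletion at -0.07 (4 min), 0.33 (10 min) and 0.09 (20 min). WT at 20 and 40 min stood far above every other array, and none of the deletion arrays passed 0.36. The late response in WT was 1.18 ± 0.29 (2.26-fold, adjusted p = 0.0354). It averages arrays at 0.26 and 2.09, so it is 2.23 without the 10 min array and 0.13, no longer passing, without the 20 min array. It also did not pass without the WT or the YAP1 deletion array at 2 or at 4 min, or with robust shrinkage of the variances. With the WT arrays alone it did not pass either (adjusted p = 0.0872, limma). The call was lost in 8 of 18 alternative settings.

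MET14, the adenylyl sulphate kinase, stood at -0.07 (30 s), -0.02 (2 min), -0.10 (4 min), 0.57 (10 min), 1.81 (20 min) and 1.85 (40 min) in WT. It was at -0.31 (30 s), 0.16 (2 min), 0.06 (4 min), 0.33 (10 min) and 0.41 (20 min) in the YAP1 deletion and at 0.40 (30 s), -0.26 (2 min), 0.14 (4 min), 0.05 (10 min) and -0.01 (20 min) in the PDR1 deletion. The WT values left the range of the deletion arrays from 10 min on. The late response in WT was 1.19 ± 0.19 (2.28-fold, adjusted p = 0.0031); it is 0.57 without the WT array at 20 min and then did not pass.

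The remaining genes of this step followed other courses. MET5, the beta subunit of sulphite reductase, stood at 0.00 (30 s), 0.04 (2 min), 0.00 (4 min), 0.16 (10 min), 0.98 (20 min) and 1.67 (40 min) in WT and at -0.12 (30 s), 0.07 (2 min), -0.14 (4 min), 0.14 (10 min) and 0.27 (20 min) in the YAP1 deletion. MET10, the alpha subunit, stood at 0.17 (30 s), -0.06 (2 min), 0.34 (4 min), 0.56 (10 min), 0.47 (20 min) and 1.02 (40 min) in WT and at -0.03 (30 s), -0.26 (2 min), 0.15 (4 min), 0.19 (10 min) and -0.24 (20 min) in the YAP1 deletion. Neither could be tested in the 3 strains. In a fit of the WT arrays alone their late responses were 0.57 ± 0.19 (adjusted p = 0.137) and 0.52 ± 0.15 (adjusted p = 0.0905). MET22, a phosphatase that clears the by-product of sulphate reduction, stood at 0.03 (30 s), -0.04 (2 min), -0.13 (4 min), -0.02 (10 min), 0.84 (20 min) and 1.59 (40 min) in WT and did not pass (late response 0.41 ± 0.13, adjusted p = 0.0769).

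MET1 and MET8 make sirohaem, the cofactor of sulphite reductase. MET1 swung from -0.72 at 10 min to 1.08 at 40 min in WT and was not tested. MET8 ranged from -0.36 to 0.17 in WT, with a late response of -0.31 ± 0.10 (adjusted p = 0.0855). MET3, the ATP sulphurylase that starts the pathway, was nearly flat: its 16 values lay between -0.02 and 0.38, the highest of them in WT at 40 min, beside 1.81 and 1.85 for MET14, the enzyme of the next step, in WT at 20 and 40 min. The spot intensities were not used here, so how bright the MET3 probe was is not known.

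**Figure D2:**
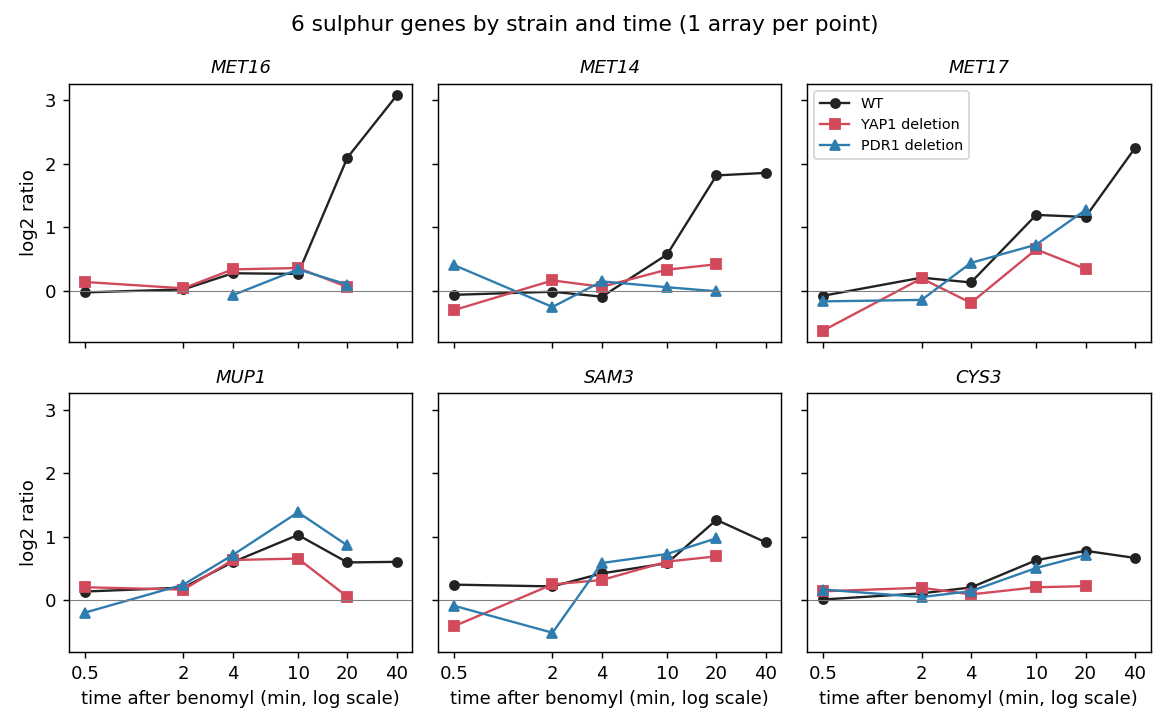
Log2 ratio of drug-treated over untreated RNA against time after benomyl (log scale, 0.5 is 30 s) for MET16, MET14, MET17, MUP1, SAM3 and CYS3 in the 3 strains, 1 array per point. MET16 and MET14 stood at 2.09 and 1.81 in WT at 20 min and at or under 0.41 in both deletions at that time, while in the PDR1 deletion MET17, MUP1, SAM3 and CYS3 stood at 1.27, 0.86, 0.98 and 0.71 at that time, against 1.16, 0.60, 1.27 and 0.78 in WT.

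In the synthesis of homocysteine and methionine, 1 of 6 genes tested rose in WT. MET17, the sulphydrylase that fixes sulphide into homocysteine, stood at -0.08 (30 s), 0.20 (2 min), 0.13 (4 min), 1.19 (10 min), 1.16 (20 min) and 2.24 (40 min) in WT. It was at -0.63 (30 s), 0.19 (2 min), -0.19 (4 min), 0.65 (10 min) and 0.34 (20 min) in the YAP1 deletion and at -0.17 (30 s), -0.15 (2 min), 0.44 (4 min), 0.72 (10 min) and 1.27 (20 min) in the PDR1 deletion. From 10 min on it was above 0.3 in all 3 strains. Its late response in WT was 1.18 ± 0.17 (2.26-fold, adjusted p = 0.00156), and it passed in all 20 alternative settings of that fit.

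MET2, which makes O-acetylhomoserine, the partner of sulphide in the MET17 reaction, ranged from -0.24 to 0.37 in WT up to 20 min and stood at 1.32 at 40 min. Its late response was 0.07 ± 0.16 (adjusted p = 0.834). MET13, a methylenetetrahydrofolate reductase, had a late response of 0.39 ± 0.13 (adjusted p = 0.0939). MET12, its isozyme, and MET6, the methionine synthase, had late responses of -0.03 ± 0.12 (adjusted p = 0.897) and 0.09 ± 0.20 (adjusted p = 0.826). MHT1, which methylates homocysteine with S-methylmethionine, had a late response of 0.17 ± 0.10 (adjusted p = 0.329).

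The AdoMet cycle showed no call, with 0 of 2 genes tested in WT at an adjusted or an unadjusted p under 0.05 (limma). Of all features 1107 of 4323 had an unadjusted p under 0.05 in the late response and 854 of 4324 over 2 to 20 min. SAM2, an AdoMet synthetase, ranged from -0.20 to 0.26 in WT. SAH1, which hydrolyses S-adenosylhomocysteine, lay between -0.25 and 0.11 up to 20 min and stood at -0.85 at 40 min, the lowest value of the 34 genes on that array. SAM1, the other AdoMet synthetase, ranged from -0.35 to 0.11 in WT and from -0.14 to 0.12 in the YAP1 deletion. The SAM1 and SAM2 genes are close copies, and how far each probe reads both was not tested.

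Transsulphuration runs from homocysteine to cysteine through CYS4 and CYS3 and back through STR2 and STR3. The genes of the direction towards cysteine rose in WT. CYS3, cystathionine gamma-lyase, stood at 0.01 (30 s), 0.11 (2 min), 0.20 (4 min), 0.63 (10 min), 0.78 (20 min) and 0.67 (40 min) in WT, at 0.14 (30 s), 0.20 (2 min), 0.09 (4 min), 0.21 (10 min) and 0.22 (20 min) in the YAP1 deletion and at 0.17 (30 s), 0.05 (2 min), 0.14 (4 min), 0.51 (10 min) and 0.71 (20 min) in the PDR1 deletion. At 10 and 20 min the YAP1 deletion lay below both other strains. The late response in WT was 0.71 ± 0.10 (1.63-fold, adjusted p = 0.00138).

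CYS4, cystathionine beta-synthase, stood at 0.05 (30 s), 0.05 (2 min), 0.45 (4 min), 0.57 (10 min), 0.58 (20 min) and 0.62 (40 min) in WT, at 0.31 (30 s), -0.15 (2 min), 0.23 (4 min), 0.41 (10 min) and -0.02 (20 min) in the YAP1 deletion and at -0.08 (30 s), 0.18 (2 min), 0.05 (4 min), 0.32 (10 min) and 0.09 (20 min) in the PDR1 deletion. From 4 min on each WT value was above those of both deletions at the same time. The late response in WT was 0.57 ± 0.13 (1.49-fold, adjusted p = 0.0174). That call was lost in 3 of 20 alternative settings, among them the fit of the WT arrays alone (adjusted p = 0.0646, limma). STR3, cystathionine beta-lyase, ranged from -0.24 to 0.05 in WT, where it lacked the 10 min value, and its late response, which is the 20 min array adjusted for the time effect of the other strains, was -0.41 ± 0.23 (adjusted p = 0.294). STR2, cystathionine gamma-synthase, ranged from -0.53 to 0.31 in WT and was not tested.

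Among the regulators 0 of 5 genes tested passed in WT (limma). At an unadjusted p under 0.05 was 1 of them in the late response, beside 1107 of 4323 features. Over 2 to 20 min there were 2, beside 854 of 4324 features. MET4 ranged from -0.67 to 0.38 in WT and CBF1 from -0.25 to 0.06, and their late responses were 0.24 ± 0.11 (adjusted p = 0.21) and -0.02 ± 0.18 (adjusted p = 0.97). MET28, a bZIP partner of Met4, stood at 0.16 (30 s), 0.11 (2 min), 0.23 (4 min), 0.63 (20 min) and 1.17 (40 min) in WT and at -0.36 (30 s), 0.16 (2 min), 0.21 (4 min), 0.54 (10 min) and 0.90 (20 min) in the YAP1 deletion, and at 0.38 (30 s), 0.00 (2 min), 0.37 (4 min), 0.33 (10 min) and 0.09 (20 min) in the PDR1 deletion. At 20 min the YAP1 deletion was the highest of the strains. The late responses were 0.60 ± 0.20 in WT (adjusted p = 0.0936; the 10 min value is missing) and 0.72 ± 0.13 in the YAP1 deletion (adjusted p = 0.084).

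MET32, a zinc finger partner of Met4, had values on 2 WT arrays, 0.36 at 2 min and 2.80 at 40 min. The 6 values of the deletions lay between 0.06 and 0.49. At 40 min it ranked 22 from the top of 6014 features. Its relative MET31 ranged from -0.26 to 0.22 in WT, and MET30 from 0.03 to 0.43; neither passed (late responses -0.07 ± 0.13, adjusted p = 0.779, and 0.23 ± 0.13, adjusted p = 0.321).

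In the deletions, the genes that passed in no contrast had some single values far from the others. MET6 stood at -0.50 in the YAP1 deletion and at 0.57 in WT at 2 min, the widest gap between these strains at that time. CBF1 stood at -0.86 in the PDR1 deletion at 2 min and between -0.32 and 0.07 on the other arrays of that strain. MET2 reached 0.60 in the YAP1 deletion at 20 min, and STR2 0.62 there at 10 min. SAH1 was lowest in the PDR1 deletion at 20 min, at -0.40, and STR3 at 10 min, at -0.48. MET22, at 0.84 in WT at 20 min, stood at 0.23 in the YAP1 deletion and at 0.31 in the PDR1 deletion. None of these single values has a repeat.

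**Figure D3:**
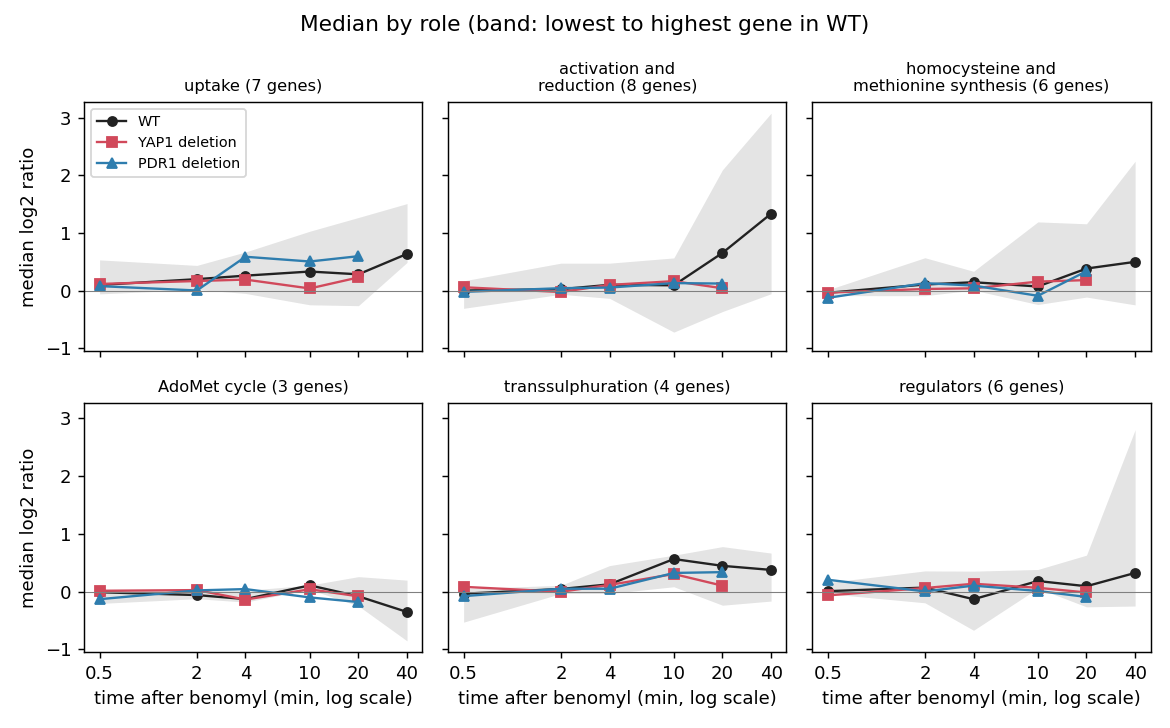
Median log2 ratio of each role group (all its genes with a value on the array) against time after benomyl (log scale) in the 3 strains, with the range from the lowest to the highest gene in WT as a grey band. The median of the activation and reduction genes in WT was 0.09 (10 min), 0.65 (20 min) and 1.33 (40 min), and 0.04 and 0.12 in the YAP1 and PDR1 deletions at 20 min.

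In WT the median of the uptake genes was 0.26 (4 min), 0.33 (10 min), 0.28 (20 min) and 0.64 (40 min), whereas that of activation and reduction was 0.10 (4 min), 0.09 (10 min), 0.65 (20 min) and 1.33 (40 min). Transsulphuration stood at 0.56 at 10 min and at 0.38 at 40 min. The medians of the AdoMet cycle and of the regulators were -0.35 and 0.32 at 40 min. These medians rest on 3 to 8 genes of single arrays and were not tested.

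The WT array at 40 min, which has no counterpart in the deletions and entered no test, held the highest values of the pathway. On it 11 of the 34 genes were at least 2-fold up (32.4%, where 4.09% of all features were): MET16, MET32, MET17, MET14, MET5, MET22, SUL2, MET2, MET28, MET1 and MET10. At 20 min there were 4 of 33 (12.1%, where 2.72% of all features were), MET16, MET14, SAM3 and MET17, and at 10 min 2 of 30 (6.67%, where 1.43% of all features were), MET17 and MUP1. MET16 ranked 15, MET17 41, MET14 71, MET5 88 and MET22 103 from the top of the 6014 features at 40 min. None of the 34 genes was 2-fold down on any of the 16 arrays. Few of all features were either: 3.43% in WT at 40 min, 1.73% in WT at 20 min and at most 0.771% on the other arrays. With so few genes a count of 0 is near these shares.

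From 20 to 40 min, 25 of the 33 genes with both values were higher at the later time (75.8%), with a median difference of 0.21, against 49.3% and -0.01 for all features. SUL2 gained 1.72, MET17 1.08, MET16 0.98, MET2 0.94, MET22 0.76 and SUL1 0.76 on the log2 scale. MET14 gained 0.04 and CYS4 0.04, whereas SAM3, MHT1 and SAH1 were lower at 40 min, with differences of -0.36, -0.64 and -0.61. With 1 array at each time these differences have no replicate check.

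**Figure D4:**
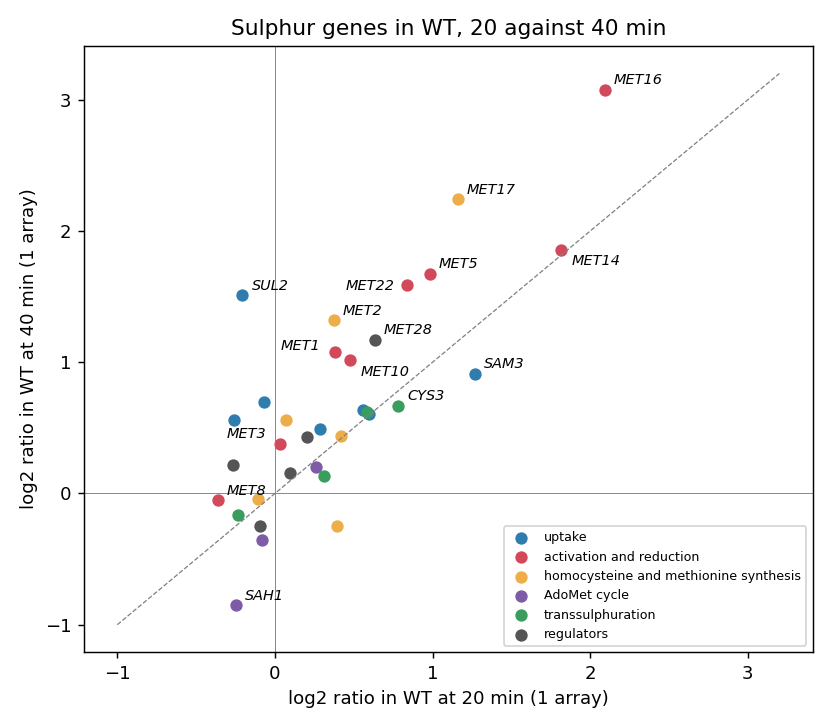
Log2 ratio of drug-treated over untreated RNA in WT at 20 min (horizontal) and 40 min (vertical) for the 33 sulphur genes with both values, 1 array each, coloured by role, with the line of equal values dashed. 25 of the 33 genes lie above the line, SUL2 and MET16 far above it, and SAM3 and SAH1 lie below it.

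In the YAP1 deletion 0 of the 26 genes passed in the fit of all 3 strains (limma), over 2 to 20 min and in the late response. Of all features 0.116% and 0.185% were called. At an unadjusted p under 0.05 were 4 of the 26 over 2 to 20 min, beside 416 of 4324 features. In the late response there were 4 as well, beside 432 of 4323 features. The median late response was 0.07, against -0.01 for all features. The largest late responses were those of MET28, 0.72 ± 0.13 (adjusted p = 0.084), SAM3, 0.65 ± 0.17 (adjusted p = 0.219), and MET17, 0.49 ± 0.17 (adjusted p = 0.37). MET28 passed without the WT array at 10 min or at 20 min. It has no value on the first, and the second holds its only late WT value. These passes thus come from the variance shrinkage and the adjustment shared with other features. With the arrays of the YAP1 deletion alone, MET28 and SAM3 rose late (adjusted p = 0.00858 and 0.0132). With all arrays scaled to the same spread MET28 and MUP1 passed over 2 to 20 min and MET28 late. With the 30 s array subtracted MET13, MET14, MET17, MET28 and SAM3 passed in both fits. Many more of all features passed under that setting too. MET14 then passed over 2 to 20 min at an unadjusted p of 0.0103 (adjusted p = 0.0392, limma). In the main fit MET28 did not pass at an unadjusted p of 0.000796 (adjusted p = 0.229). Whether these calls exceed the share of all features was not tested. On no array of this strain was any of the 34 genes at least 2-fold up, and at 20 min 0.491% of all features were.

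Without Pdr1 the permease genes MUP1, MMP1 and SAM3, the sulphydrylase gene MET17 and the lyase gene CYS3 rose, and MET14 and MET16 did not pass. Over 2 to 20 min 4 of the 26 genes rose and 0 fell (15.4%, where 5.5% of all features were called): MUP1, MMP1, MET17 and CYS3. In the late response 5 rose and 0 fell (19.2%, where 3.7% of all features were called). These were MUP1 at 1.13 ± 0.10 (2.18-fold, adjusted p = 3.79e-05), MET17 at 0.996 ± 0.17 (adjusted p = 0.00573), SAM3 at 0.85 ± 0.17 (adjusted p = 0.0141), MMP1 at 0.73 ± 0.11 (adjusted p = 0.00266) and CYS3 at 0.61 ± 0.10 (adjusted p = 0.0045). MET14 and MET16 had late responses of 0.02 ± 0.19 (adjusted p = 0.963) and 0.21 ± 0.29 (adjusted p = 0.699). For CYS4 it was 0.21 ± 0.13 (adjusted p = 0.369). Over 2 to 20 min the count was 1 without the 10 min array of this strain, 2 without the time block and 0 with its own arrays alone. The late count was 2 without the 10 min array of this strain (MET17 and MUP1) and 2 without its 20 min array (MMP1 and MUP1). At 20 min MET17 alone of 27 genes with a value was at least 2-fold up, where 1.35% of all features were.

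**Figure D5:**
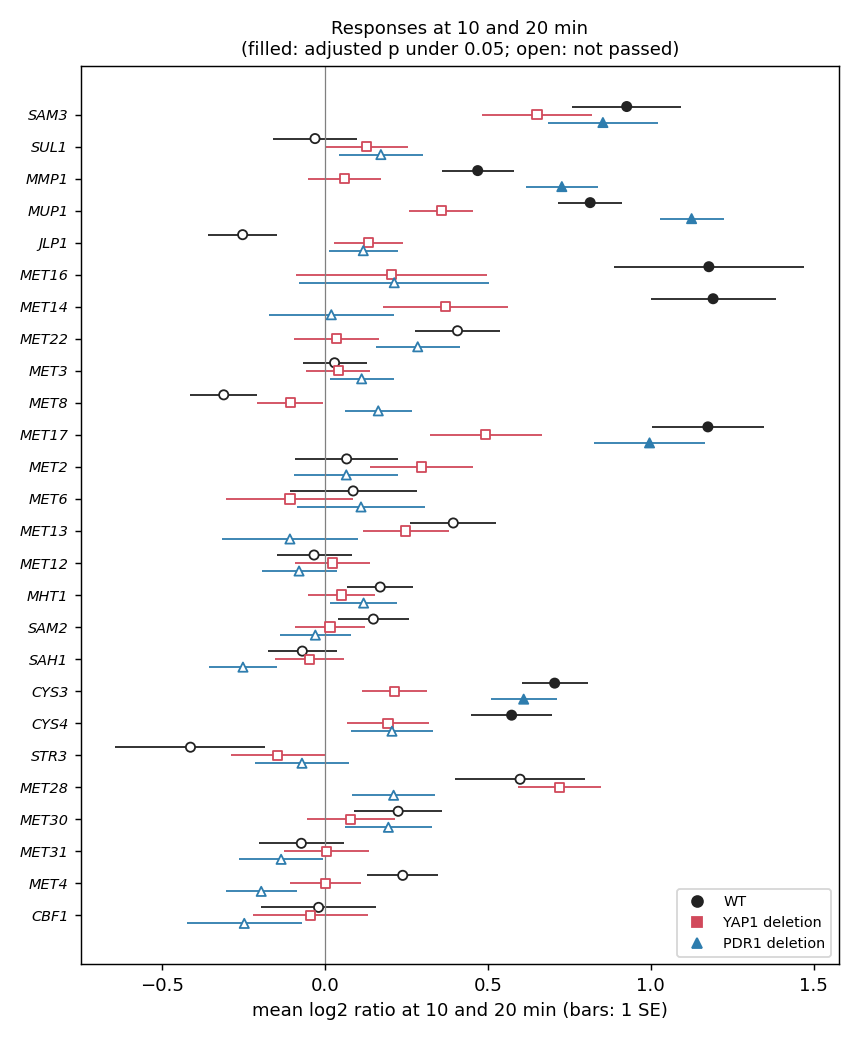
Late response (mean log2 ratio at 10 and 20 min, horizontal, bars 1 SE from limma) of the 26 sulphur genes tested, by strain, with filled symbols where the adjusted p over all features was under 0.05. In WT 8 genes passed, in the PDR1 deletion 5 and in the YAP1 deletion 0.

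A gene that passed in WT and not in a deletion is not thereby shown to differ, so the differences were tested themselves. For the YAP1 deletion minus WT, 0 of the 26 genes passed in the late response, where 1.48% of all features were called (limma). At an unadjusted p under 0.05 were 7 of the 26, beside 433 of all 4324 features. MET14 differed by -0.82 ± 0.27 (95% interval -1.42 to -0.22, adjusted p = 0.281) and MET16 by -0.97 ± 0.41 (95% interval -1.90 to -0.05, adjusted p = 0.465). The others at an unadjusted p under 0.05 were MET17 at -0.68 ± 0.24 (adjusted p = 0.322), CYS3 at -0.49 ± 0.14 (adjusted p = 0.185), MUP1 at -0.46 ± 0.14 (adjusted p = 0.218) and MMP1 at -0.41 ± 0.16 (adjusted p = 0.386), all lower without Yap1, and JLP1 at 0.39 ± 0.15 (adjusted p = 0.399). The median difference was -0.14, against 0.03 for all features. Without the WT array at 10 min, the late WT side is the 20 min array alone. At 20 min MET14 and MET16 differed by -1.40 and -2.04, on single arrays. With the 30 s arrays subtracted CYS3 passed, a setting under which more of all features passed too. Over 2 to 20 min 0 of the 26 passed (limma), where 0.139% of all features were called. At an unadjusted p under 0.05 were 4 of the 26, beside 373 of all 4324 features.

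For the PDR1 deletion minus WT, 0 of the 26 genes passed in the late response, where 0.278% of all features were called (limma). At an unadjusted p under 0.05 were 6 of the 26, beside 760 of all 4323 features, a share not far from theirs. MET14 differed by -1.17 ± 0.27 (95% interval -1.77 to -0.57, adjusted p = 0.104), MET16 by -0.96 ± 0.41 (95% interval -1.89 to -0.04, adjusted p = 0.274) and MUP1, in the other direction, by 0.31 ± 0.14 (95% interval 0.01 to 0.62, adjusted p = 0.278). The others at an unadjusted p under 0.05 were MET8 at 0.47 ± 0.15 (adjusted p = 0.155), JLP1 at 0.37 ± 0.15 (adjusted p = 0.25) and MET4 at -0.43 ± 0.15 (adjusted p = 0.223). For MET17 the difference was -0.18 ± 0.24 (95% interval -0.71 to 0.35) and for CYS3 -0.10 ± 0.14 (95% interval -0.41 to 0.22). Without the WT array at 10 min MET14 and MET16 passed, and with the 30 s arrays subtracted MET14 and MUP1 did. Over 2 to 20 min 0 of the 26 passed (limma), where 0% of all features were called. At an unadjusted p under 0.05 were 3 of the 26, beside 617 of all 4324 features. Both differences use the same WT arrays, so they are not independent of each other.

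At 20 min alone, MET16 stood at 2.09 in WT, 0.06 in the YAP1 deletion and 0.09 in the PDR1 deletion. For both deletions this was the largest shortfall against WT among the genes with both values (33 and 26 of the 34). In the YAP1 deletion 22 of 33 genes were lower than in WT at 20 min and 11 higher, with a median of -0.19, and 44.5% of all features were lower. In the PDR1 deletion 15 of 26 were lower and 11 higher, with a median of -0.06, and 47.5% of all features were lower. No test goes with these single arrays.

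Of 39 further genes around the pathway, in the salvage of methionine, homoserine synthesis, sulphur transport, glutathione and thioredoxin metabolism and the Met30 ligase, 32 could be tested. In the late response of WT 10 rose and 0 fell (9.07% of all features were called). The thioredoxin TRX2 at 1.42 ± 0.12, glutamate-cysteine ligase GSH1 at 1.38 ± 0.16, which uses cysteine, and the thioredoxin reductase TRR1 at 1.11 ± 0.11 were the highest (adjusted p = 1.94e-05, 0.00025 and 6.46e-05). The aminotransferase ARO9 (0.96 ± 0.13), the aspartate kinase HOM3 (0.64 ± 0.15), the glutathione transporter OPT1 (0.54 ± 0.14), HSU1 (0.47 ± 0.11), the ligase subunit HRT1 (0.46 ± 0.11), the amino acid permease AGP1 (0.45 ± 0.12) and the aminotransferase BAT1 (0.42 ± 0.11) rose less.

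In the PDR1 deletion 5 of the 32 rose late (3.7% of all features were called), TRX2, AGP1, GSH1, TRR1 and ARO9, with AGP1 at 1.07 ± 0.12 (adjusted p = 0.000246). In the YAP1 deletion 0 did (limma), where 0.185% of all features were called. At an unadjusted p under 0.05 were 4 of the 32, beside 432 of 4323 features. TRX2, TRR1 and GSH1 also passed the test of the difference, which called 1.48% of all features: they were lower in the YAP1 deletion than in WT by 1.32 ± 0.16, 1.04 ± 0.15 and 1.25 ± 0.22 on the log2 scale (adjusted p = 0.00111, 0.00324 and 0.0176). Beside them, MET14 and MET16 had differences of -0.82 ± 0.27 and -0.97 ± 0.41, with larger SE.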

How the data were processed

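RNA of drug-treated and untreated cells of the same strain was compared on 16 arrays with 2 channels. The values deposited by the authors are log ratios, 1 column per array, taken here as log2 of channel 1 (with drug, per the labels) over channel 2. The base is not stated: base 10 would give ratios beyond a million-fold, while natural logarithms, under which all folds would be larger, remain possible. With the channels read the other way all signs would be opposite. Array means were near 0, and how the authors reached this is not stated. Dye, background correction, normalisation method and pooling of hybridisations are not given in the sources used here. A dye bias of a gene cannot be told apart from its response.

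Symbols came from the platform annotation of 5628 of 6338 probes and were updated through RefSeq; probes of the same gene were averaged. With limma 3.58.1 in R 4.3.3 (lmFit, eBayes, two-sided), a model with terms for strain and for time, the latter as a block, was fitted to the 12 arrays of 2, 4, 10 and 20 min, and the late response was fitted with strain-by-phase terms (2 and 4 against 10 and 20 min) with time within phase. Features needed at least 3 of 4 values in each strain (4324 features, 68.4%), a contrast that a feature's values could not separate from other terms was left out (1 feature in 4 of the 5 late contrasts), and p-values were adjusted over all of them (Benjamini-Hochberg, called under 0.05). Times stand in for repeats: there is no biological replicate, SE and p use the spread left over all 12 arrays, and differences between strains that grow with time enter that spread in the 2 to 20 min fit. Residual degrees of freedom were 6, and 4 in the late fit, where no value was missing. If the spread is larger at 10 and 20 min than before, the late SE and p are too small.

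On simulated data with 200 of 4324 genes changed in WT, the 2 to 20 min fit called 97.5% at a constant effect of 1 in the WT response and 0% where an effect of mean 1 grew with time; for such effects, about 1.81 at 10 and 20 min, the late fit called 96.5% in WT and 90.5% for the YAP1 deletion minus WT. For that difference it called 59% at growing effects of mean 0.5 (median estimate -0.93), 75.5% at a constant 1 and 0% at a constant 0.5. The simulated growing effects rose mostly between 4 and 10 min and little from 10 to 20 min. MET14 and MET16 rose mostly from 10 to 20 min in WT. These shares therefore do not measure how often differences like theirs would be called.

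The gene list, the role groups, the 39 further genes and the late fit were chosen with earlier results of these data known. Values on every array are given for genes called in any contrast, and ranges, counts or values for the other genes of the pathway; further genes are named where called, and FLR1, YAP1 and PDR1 as checks of the strains. MET5, MET10, MET22 and others that were not called were given in full after their values were seen. No positions or sequences are given, since no genome build is given for the probes. The alternatives tried are those of the closing section.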

Additional observations from a re-analysis of the deposited data

How the results depend on the processing

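The number of pathway genes called was recomputed for each contrast under other settings. Without the replicate block, that is with the time term left out, 0 genes instead of 6 passed in WT over 2 to 20 min and 2 instead of 4 in the PDR1 deletion, and no other count of that fit moved by more than 1.5 times. With only the arrays of the strain itself, 0 passed in WT and 0 in the PDR1 deletion over 2 to 20 min; in the late response 5 instead of 8 passed in WT and 2 instead of 0 in the YAP1 deletion. With arrays scaled to the same spread, 4 instead of 8 passed late in WT, and in the YAP1 deletion 2 over 2 to 20 min and 1 late. With the 30 s array subtracted more of all features passed than in the main fits. In the PDR1 deletion over 2 to 20 min MHT1 then passed at an unadjusted p of 0.0112 (limma). In the main fit SAM3 did not pass there at 0.00282. Whether the counts of pathway genes under this setting exceed the share of all features was not tested. Subtracting the 30 s array also puts that array's own error into every array of the strain. It gave 5 and 5 instead of 0 and 0 in the YAP1 deletion over 2 to 20 min and late, 7 instead of 4 in the PDR1 deletion over 2 to 20 min (SAM3 joined as higher and CBF1, MET31 and MHT1 as lower, at -0.39, -0.53 and -0.21, and CYS3 did not pass), 3 and 1 instead of 0 and 0 for the YAP1 deletion minus WT, and 3 and 2 instead of 0 and 0 for the PDR1 deletion minus WT. Leaving out arrays gave ranges of 1 to 6 (WT) and 1 to 5 (PDR1 deletion) over 2 to 20 min; in the late response 2 to 9 (WT), 0 to 1 (YAP1 deletion), 2 to 5 (PDR1 deletion), and 0 to 2 for both differences. Beyond the smaller number of arrays and the added error just named, the cause of these moves was not tested. Of 518 alternative values for the 23 called responses of single genes, 424 kept direction and call, 94 kept direction without passing, and 0 reversed. The arrays give no spot intensity here, so how far signal over background limits a gene, MET3 among them, is not known.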

Other observations

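The 30 s arrays entered no test apart from the alternatives that subtract or add them. On them the 34 genes ranged from -0.53 (STR2) to 0.53 (SUL2) in WT, from -0.85 (MUP3) to 0.37 (SUL2) in the YAP1 deletion and from -0.38 (STR3) to 0.44 (MET2) in the PDR1 deletion, with standard deviations over the genes of 0.17, 0.30 and 0.25. In the YAP1 deletion MUP3 (-0.85), MET13 (-0.83) and MET17 (-0.63) were the lowest at 30 s, and at 2 min the same genes stood at 0.09, 0.02 and 0.19.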
